A study of Mus musculus with 6 samples.

Results

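Axon guidance genes encode secreted and membrane-bound cues and the receptors that read them. They were taken as every probe set that the platform annotation gives to 1 symbol among the semaphorins, plexins, neuropilins, ephrins, Eph receptors, Slits, Robos, netrins, Unc5 receptors and Dcc. This gave 152 of 45101 probe sets and 69 of 18193 named genes, 1 of them Plxna4os1, an antisense transcript of the plexin A4 locus. RNA came from microdissected mouse otic vesicles, the epithelial sacs that form the inner ear, at embryonic day 11.5. The Mest-KO group carried a conditional Tbx1 knockout driven by T-Cre. This Cre is expressed from the promoter of T (Brachyury) and recombines in mesoderm, which surrounds the vesicle. The control group was heterozygous for conditional Tbx1 and carried T-Cre too, so the recombinase and a conditional Tbx1 allele were common to both groups. Tissue of both groups was treated with dispase, a protease, for 30 min at 37 C. The labels used here name no strain. Each group had 3 arrays, and each array held both ears of 3 embryos pooled by genotype, so differences between single embryos are averaged.

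Guidance cues act in matched sets. Class 3 semaphorins are secreted and act mostly through neuropilins with plexins, and the other semaphorins sit on the membrane and bind plexins. Ephrins are cell-surface ligands of Eph receptor tyrosine kinases, Slits repel through Robo receptors, and netrins attract through Dcc or repel through Unc5 receptors. In the inner ear these families are known for guiding ganglion fibres, for boundaries between cell groups and, for netrin 1, for the shaping of the semicircular canals.

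Tbx1 had normalized intensities of 897, 703 and 717 in Mest-KO and 881, 698 and 778 in control. The groups overlapped, with a log2 difference of -0.03 (SE 0.150, exact two-sided permutation p = 1, where 0.1 is the smallest p possible). Leaving out control 1 turned it to 0.06, leaving out Mest-KO 2 to 0.04 and leaving out Mest-KO 3 to 0.02. The level of Tbx1 thus did not tell the groups apart, and whether its probe set lies in the deleted part was not analysed here. The 7 markers of otic epithelium all lay above the brightness filter, and their summed intensity was 36396 to 41295 in Mest-KO and 40808 to 41899 in control. The 10 mesenchyme markers, also all above the filter, summed to 2182, 6409 and 4183 in Mest-KO and 4165, 2904 and 1689 in control, with the highest value in Mest-KO 2. The 12 ganglion neuron markers summed to 8183 to 8644 in Mest-KO and 7899 to 8146 in control, without overlap. Their mean log2 intensity overlapped, at 7.85 to 8.25 in Mest-KO and 7.81 to 8.04 in control. Among them Neurod1, a transcription factor of young neurons, had 1929, 1387 and 1502 in Mest-KO and 979, 1125 and 1110 in control. Its log2 difference was 0.57, and Neurog1, Elavl3, Pou4f1, Ntrk2 and Ntrk3 were also higher, by 0.07 to 0.67. Isl1, Elavl4, Stmn2, Tubb3, Nefl and Nefm were lower, from -0.67 to -0.01. The sum gives bright genes such as Isl1 and Neurod1 the most weight, and the sum without Neurod1 was not analysed. Mest-KO 3 stood apart from the other arrays, at 36.4 on a first principal component with 33.1% of the variance, against -10.3 to -1.77 for the rest. As deposited, its median intensity was 91.0, against 62.1 to 71.0 on the others. On Mest-KO 3, 18.6% of probe sets lay under 16, against 23.5% to 26.9% on the others. The part of this in the values of dim genes on that array was not tested. The arrays come from whole vesicles, so fewer cells of a type and less RNA per cell cannot be told apart.

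No axon guidance gene passed the test. Of the 69 genes, 56 had a mean intensity above 34.4, the 40th percentile over the whole array, and none of them reached an adjusted p under 0.05 (limma with Benjamini-Hochberg adjustment over 12462 genes, smallest adjusted p of a member 0.571). The background was 0% of all genes. At an unadjusted p under 0.05 there were 10 members, 5 higher and 5 lower in Mest-KO, or 17.9% of the 56, beside 5.14% of all genes tested (2.23% higher and 2.91% lower). Without the brightness filter the count was also 10, of 69 genes, beside 4.27% of 18193 genes. The groups did not overlap in 16 of the 56 genes, 9 higher and 7 lower in Mest-KO, which is 28.6% beside 10.6% of all genes (4.74% higher and 5.85% lower). These shares are descriptions and were not tested against each other. The median log2 change of the 56 genes was 0.03, beside -0.00 for all genes tested, and 29 were higher and 27 lower. When arrays were centred on their medians, a scaling that moved the median of all genes to -0.14, 23 were higher and 33 lower, and the members with an unadjusted p under 0.05 were 2 higher and 4 lower.

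**Figure D1:**
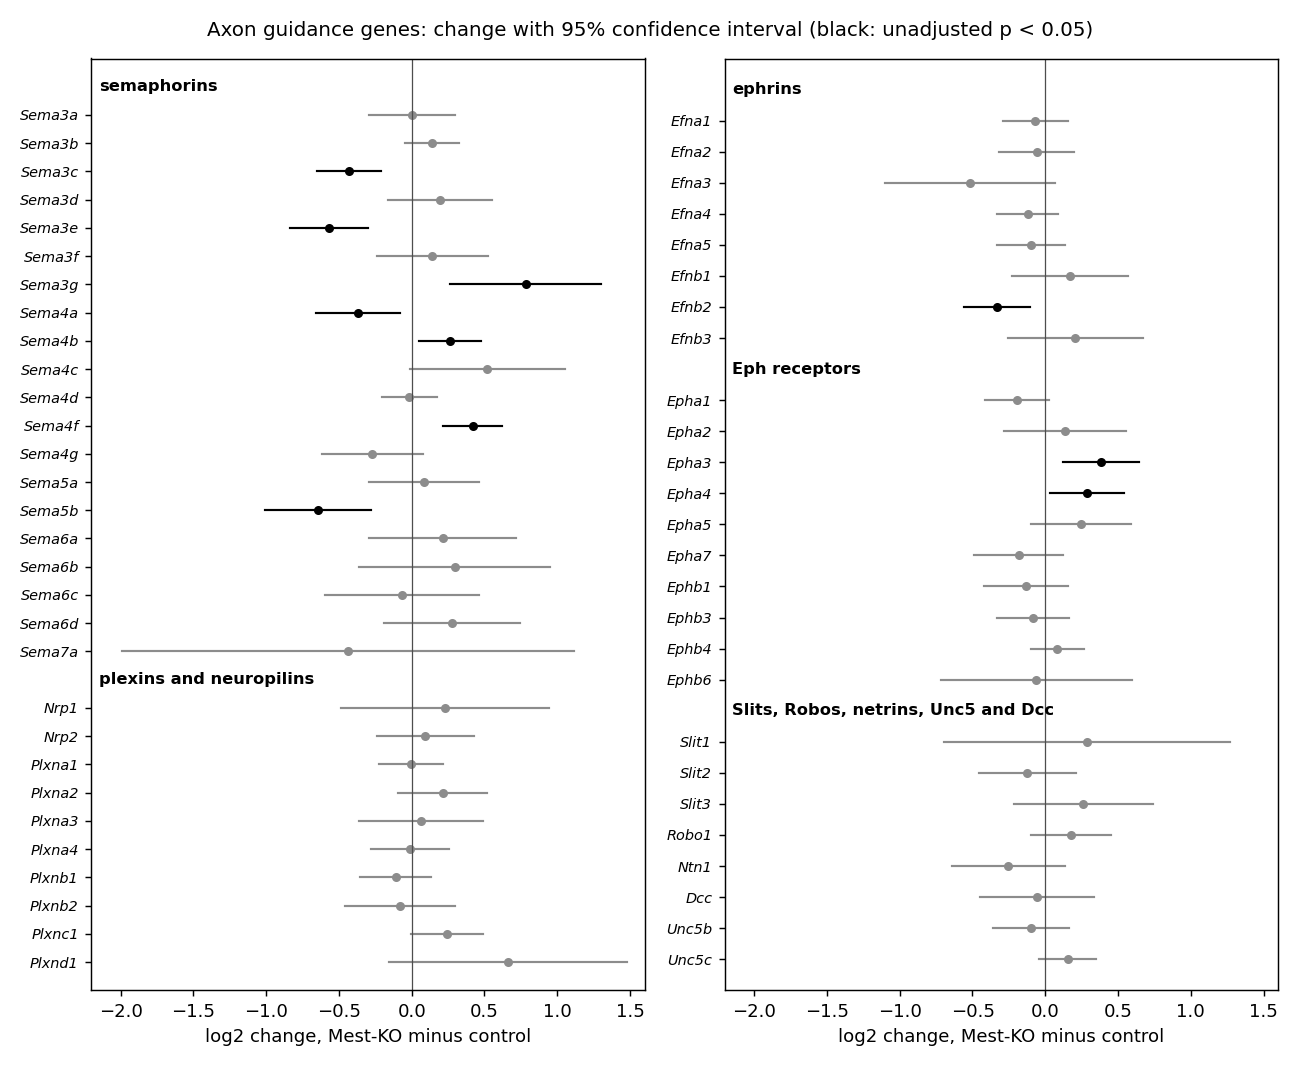
Log2 change, Mest-KO minus control, of the 56 axon guidance genes above the brightness filter, by family, with 95% confidence intervals of the limma fit as bars (3 arrays per group). The 10 genes in black have an unadjusted p under 0.05, 7 of them semaphorins. They are 17.9% of the 56, beside 5.14% of all genes tested, and none passed after adjustment over all genes.

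Of the 10 members with an unadjusted p under 0.05, 7 were semaphorins. They were 35% of the 20 semaphorin genes, beside 5.14% of all genes tested, and these shares were not tested against each other. The 10 members became 5 with the mean of all probe sets and 5 with the most variable probe set. All 20 semaphorin genes lay above the filter, the 7 comprised 3 higher and 4 lower ones, and the median log2 change of the 20 was 0.11. Sema3e, a secreted semaphorin that binds plexin D1 without a neuropilin, had normalized intensities of 1661, 1704 and 2004 in Mest-KO and 2842, 2653 and 2436 in control. Every Mest-KO array was thus below every control. The mean was 1789 ± 187 in Mest-KO and 2643 ± 203 in control (SD, n = 3 each), 1.48-fold lower in Mest-KO, with a log2 difference of -0.57 (SE 0.111, 95% confidence interval -0.83 to -0.30). The limma adjusted p was 0.571. With a variance prior that follows brightness (limma's trend option) it was 0.0612, and with robust fitting added 0.0410, which was the only setting tried that called a member. Over all settings tried it ran from 0.0410 to 0.999. The trend option called 13 of all genes, 0.104%, and with robust fitting 16, 0.128%. Its unadjusted p was under 0.05 for 10 members, 9 of them shared with the fit without it, beside 6.1% of all genes.

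Sema3e has 4 probe sets above the filter, and they disagree. The one read for the gene has the highest mean. Another had 1550, 1840 and 1389 in Mest-KO and 1413, 1463 and 1734 in control, so its groups overlapped, and its log2 difference was 0.05 (SE 0.146). The remaining probe sets gave -0.36 and -0.17. The position of each probe set in the transcript was not analysed here.

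Efnb2, which encodes the transmembrane ligand ephrin-B2, was the member with the next smallest p when the trend was used (limma adjusted p 0.304, against 0.836 without it). It had 4151, 3715 and 3498 in Mest-KO and 4885, 4622 and 4769 in control. All Mest-KO arrays were below all controls, by a log2 difference of -0.33 (SE 0.0935, 1.26-fold lower). Its 4 probe sets above the filter all lay lower in Mest-KO, from -0.56 to -0.22.

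The promoters of Sema3e and Efnb2 are shown because they belong to the pair of members with the smallest p in the trend fit, both lower in Mest-KO. They come from RefSeq, build GRCm38.p6, and run from 250 bases before to 50 after the start of the gene, at chr5:14025026-14025325 on the plus strand and at chr8:8661193-8661492 on the minus strand. Capitals mark matches on either strand to GGGCGG, known as the GC box. They also mark CCAAT, the CCAAT box, and TATAAA, which is the core of the TATA box. In both windows no match overlaps another.
Sema3e: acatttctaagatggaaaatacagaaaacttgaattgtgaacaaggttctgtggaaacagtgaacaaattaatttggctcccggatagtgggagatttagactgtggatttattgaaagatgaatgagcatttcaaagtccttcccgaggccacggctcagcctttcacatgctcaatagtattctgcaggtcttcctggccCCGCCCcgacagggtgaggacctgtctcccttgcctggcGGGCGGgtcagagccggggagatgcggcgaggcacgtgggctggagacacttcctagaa
Efnb2: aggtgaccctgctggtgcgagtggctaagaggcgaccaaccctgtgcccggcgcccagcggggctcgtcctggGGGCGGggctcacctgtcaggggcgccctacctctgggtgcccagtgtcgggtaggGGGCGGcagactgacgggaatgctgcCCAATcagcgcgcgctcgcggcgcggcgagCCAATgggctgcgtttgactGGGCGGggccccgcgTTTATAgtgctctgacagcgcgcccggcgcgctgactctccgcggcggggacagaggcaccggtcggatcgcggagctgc
The Sema3e window has 2 GC boxes and neither of the other motifs, 11 CpG dinucleotides and 50.7% G and C. The Efnb2 window has 3 GC boxes, 2 CCAAT matches, 1 TATA box core, 35 CpG dinucleotides and 72.3% G and C. Of the 69 member genes, 58 matched the promoter table, with 74 start sites. A GC box was present in 71.6% of these 74 windows and in 35.7% of all 32851 windows, which belong to 27025 genes. That wider set was not limited to genes on the array, so it is unlike the members, which all are. CCAAT was present in 27.0% of the member windows and 37.4% of all windows, and the TATA box core in 2.70% and 13.6%. The member windows were also richer in G and C, with a median of 64.2% beside 52.7% of all windows, and a median of 18.5 CpG dinucleotides beside 7. The part of this composition in the motif shares was not tested. A match describes the letters of a window and not a binding site.

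Among the other secreted semaphorins, Sema3c was lower and Sema3g higher in Mest-KO. Sema3c, known for guiding neural crest and axons, had 234, 253 and 224 in Mest-KO and 315, 303 and 341 in control, a log2 difference of -0.43 (SE 0.0917, limma adjusted p 0.643). Those groups did not overlap, but its second probe set went the other way, with 58.3, 45.6 and 48.5 in Mest-KO against 52.7, 20.5 and 34.8 in control and a log2 difference of 0.59 (SE 0.341). Sema3g, a semaphorin known from endothelium, had 77.3, 73.8 and 72.9 in Mest-KO and 61.2, 34.1 and 39.2 in control, a log2 difference of 0.78 (SE 0.216, limma adjusted p 0.836). It was the largest positive change among the 56 genes, and control 1 lay well above the other controls. The 8 endothelial markers, 4 of them above the filter, summed to 521, 711 and 645 in Mest-KO and 541, 559 and 474 in control, with overlap. Their mean log2 intensity did not overlap, at 5.23, 6.01 and 5.18 in Mest-KO and 5.04, 5.05 and 4.64 in control, a difference of 0.56. Pecam1, Cdh5, Kdr and Tie1 lay under the filter. Of these, Pecam1 was apart between the groups, with 32.6, 23.3 and 21.9 in Mest-KO and 6.67, 9.54 and 11.9 in control, and the others overlapped. The difference was not tested for the list, and the part of these cells in the Sema3g value was not tested.

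The remaining class 3 genes had smaller differences. Sema3a, the founding repellent of the class, had 762, 992 and 791 in Mest-KO and 883, 800 and 843 in control. These overlapped, and the 95% confidence interval of the log2 difference, 0.00, ran from -0.30 to 0.30. The value was -0.12 without Mest-KO 2 and -0.03 without control 2. A second probe set of Sema3a gave -0.35 (SE 0.132). Sema3f, a ligand of neuropilin 2, had 147, 154 and 192 in Mest-KO and 158, 166 and 124 in control, a log2 difference of 0.14 (SE 0.158), or 0.02 without Mest-KO 3 and 0.01 without control 3. That Sema3f probe set carries an x suffix, which Affymetrix gives to probes that may bind other transcripts. The other Sema3f probe sets above the filter gave -0.48 and -0.00. Sema3b and Sema3d differed by 0.14 and 0.19, and Sema3b did not overlap between the groups. The other Sema3b probe sets above the filter gave 0.21 and -0.25, both with overlap. Sema3d, Sema3a, Sema3e and Sema3c all lie on chromosome 5. In RefSeq no protein-coding gene separates Sema3d from Sema3a, and 3 separate Sema3a from Sema3e. The log2 changes of these 4 genes, in that order, were 0.19, 0.00, -0.57 and -0.43.

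Of the 13 membrane-bound semaphorins, 4 had an unadjusted p under 0.05, or 30.8% beside 5.14% of all genes tested. Sema5b, a transmembrane semaphorin with thrombospondin repeats, had 228, 171 and 206 in Mest-KO and 353, 271 and 324 in control. It did not overlap, and its log2 difference of -0.64 (SE 0.150, 1.56-fold lower, limma adjusted p 0.719) was the most negative of the 56 genes. Its second probe set gave -0.37. Sema4f had 208, 207 and 213 in Mest-KO and 168, 156 and 148 in control, a log2 difference of 0.42 (SE 0.0836, limma adjusted p 0.571). The Mest-KO arrays stood close together and above every control. That Sema4f probe set carries the x suffix that Affymetrix gives to probes that may bind other transcripts, and the second probe set of the gene gave 0.17.

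Sema4b had 930, 930 and 907 in Mest-KO and 705, 809 and 799 in control, a log2 difference of 0.26 (SE 0.0881). Sema4a had 56.1, 49.7 and 45.5 in Mest-KO and 72.5, 61.2 and 61.3 in control, with a log2 difference of -0.37 (SE 0.119). Both were apart between the groups, with a limma adjusted p of 0.909. Sema4c, a ligand of plexin B2, had 846, 1541 and 1144 in Mest-KO and 890, 772 and 736 in control. Mest-KO 1 lay within the controls and Mest-KO 2 far above them, and the log2 difference was 0.52 (SE 0.221, limma adjusted p 0.909), or 0.31 without Mest-KO 2. Sema4d, the ligand of plexin B1, differed by -0.02 with a 95% confidence interval from -0.21 to 0.17.

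Sema7a, which is anchored in the membrane by a lipid and binds plexin C1, had 66.5, 72.6 and 13.4 in Mest-KO and 58.6, 45.7 and 60.3 in control. Its residual SD of 0.983 on the log2 scale was the largest of the 56 genes, through Mest-KO 3. The log2 difference was -0.44 over all arrays and 0.37 without Mest-KO 3. Sema4g, Sema5a and the class 6 genes Sema6a to Sema6d differed by -0.27 to 0.30 with overlap between the groups.

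**Figure D2:**
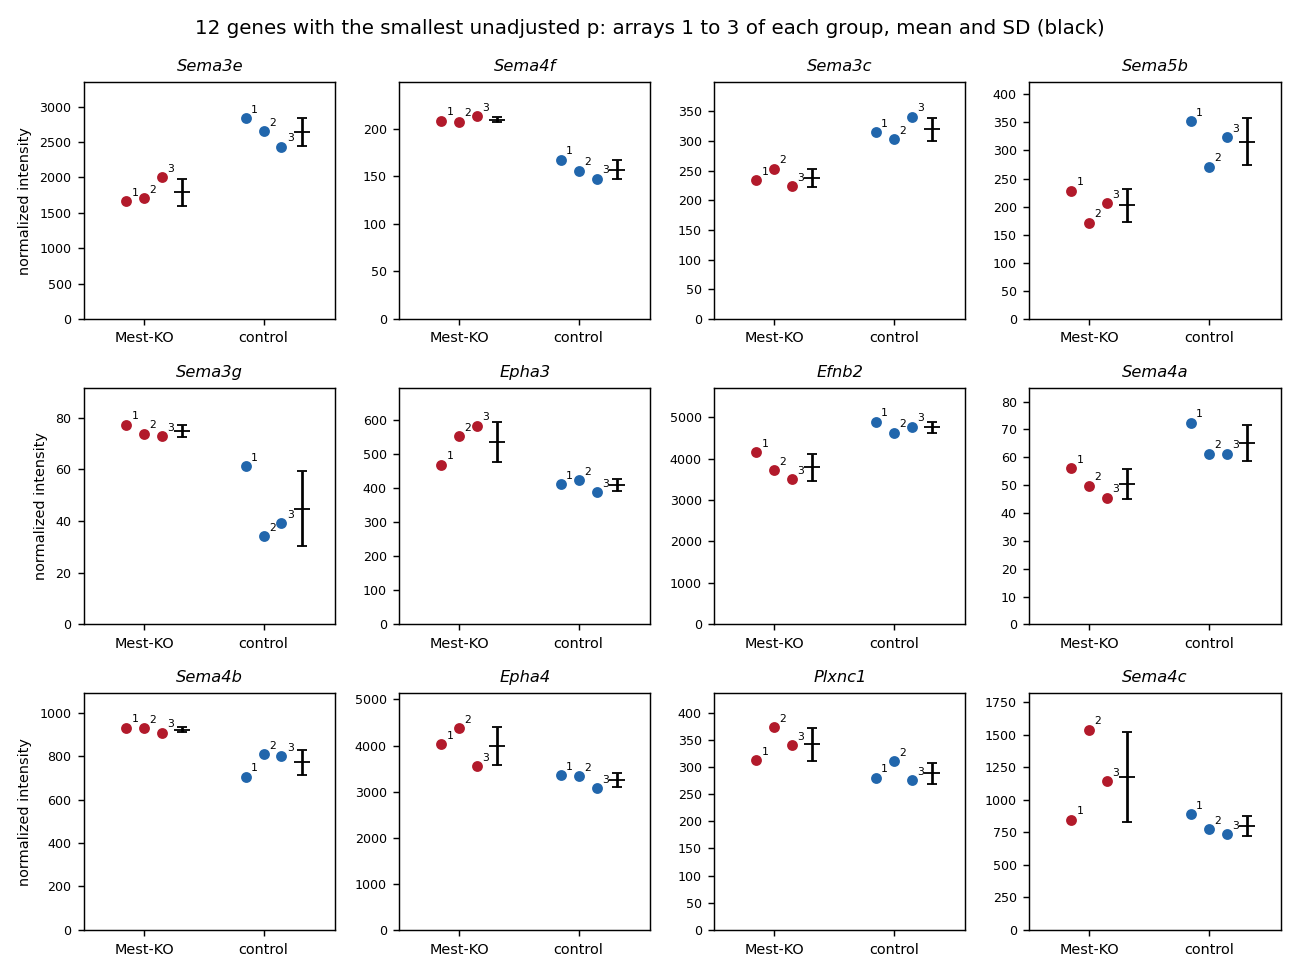
Normalized intensity of the 12 axon guidance genes with the smallest unadjusted p, with the arrays of each group numbered, Mest-KO in red on the left and control in blue on the right, and the mean and SD of 3 arrays in black. Sema4c is the gene of the 12 whose groups overlap, with Mest-KO 1 at 846 below control 1 at 890.

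The receptors of the semaphorins showed no unadjusted p under 0.05. Of 11 plexin and neuropilin genes, leaving out the antisense transcript, 10 lay above the filter, 6 higher and 4 lower in Mest-KO. Plxnd1, the receptor of Sema3e, had 42.4, 59.0 and 106 in Mest-KO and 38.1, 35.5 and 49.9 in control, a log2 difference of 0.66 (SE 0.339, limma adjusted p 0.909). The groups overlapped at Mest-KO 1, and Mest-KO 3 stood far above the others. Without Mest-KO 3 the Plxnd1 value was 0.31. Plexin D1 is known from endothelium, whose markers are given above; their part in this value was not tested either. Plxnc1 had 313, 374 and 340 in Mest-KO and 280, 310 and 276 in control, higher by 0.24 on the log2 scale (SE 0.102). It was the only one of these 10 receptors without overlap, or 10%, close to the 10.6% of all genes tested. Its other probe sets above the filter gave 0.22, -0.18 and -0.23.

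Nrp1, the neuropilin that binds Sema3a, had 160, 278 and 175 in Mest-KO and 218, 185 and 119 in control. It overlapped widely, with a log2 difference of 0.23 (SE 0.296), or -0.01 without Mest-KO 2 and -0.02 without control 3. The other Nrp1 probe sets above the filter went the other way, at -0.40 and -0.24. Nrp2, the receptor of Sema3f, had 1597, 2213 and 1661 in Mest-KO and 1682, 1665 and 1723 in control. Mest-KO 2 alone lay above the controls, and the log2 difference of 0.09 (SE 0.138) was -0.05 without it. Plxna1 and Plxnb1, of the classes that signal for class 3 semaphorins and for Sema4d, differed by -0.00 and -0.11. The 95% confidence interval was -0.22 to 0.22 for Plxna1 and -0.35 to 0.13 for Plxnb1. The Plxna1 value was positive without Mest-KO 1, Mest-KO 2 or control 3, at most 0.05.

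All 8 ephrin genes lay above the filter, 6 lower and 2 higher in Mest-KO, with a median log2 change of -0.08. Of them, 1 had an unadjusted p under 0.05, Efnb2, described above, or 12.5% beside 5.14% of all genes tested. The 5 ephrin-A genes, whose products are held in the membrane by a lipid anchor, were all lower when read from their brightest probe sets, from -0.52 to -0.06. With the deposited scaling they were also all lower, from -0.32 to -0.01. Median centring shifts those values down together, so the sign of these genes under it adds no further evidence. None of these 5 passed. The second probe set of Efna1 was also lower, at -0.39 (SE 0.119) without overlap. The second probe set of Efna2 was higher, with 376, 408 and 414 in Mest-KO and 288, 366 and 325 in control, a log2 difference of 0.30 (SE 0.120) without overlap. Efna3 had 82.9, 51.3 and 44.2 in Mest-KO and 90.9, 72.2 and 84.5 in control, a log2 difference of -0.52 (SE 0.242). It overlapped through Mest-KO 1, and its second probe set gave 0.29. Efna4 had 571, 567 and 572 in Mest-KO and 611, 673 and 580 in control, apart but by a log2 difference of -0.12 (SE 0.0873). Efna1, Efna3 and Efna4 are direct neighbours among the protein-coding genes of chromosome 3, with log2 changes of -0.07, -0.52 and -0.12. Efna5, a repellent ligand in many projections, had 2283, 2120 and 2286 in Mest-KO and 2380, 2193 and 2602 in control, a log2 difference of -0.10 (SE 0.0956) with overlap.

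The other ephrin-B genes were higher in Mest-KO without passing. Efnb1, an X-linked ligand that sets boundaries between cell groups, had 353, 436 and 536 in Mest-KO and 374, 366 and 424 in control, a log2 difference of 0.17 (SE 0.165). Efnb3 had 392, 430 and 647 in Mest-KO and 416, 427 and 400 in control, a log2 difference of 0.21 (SE 0.192). Both overlapped, Mest-KO 3 was the highest array in each, and without it Efnb1 differed by 0.02 and Efnb3 by -0.01. A difference between Efnb2 and these genes was not tested.

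Of the 13 Eph receptor genes, 10 lay above the filter, 5 higher and 5 lower in Mest-KO. Of these 10, 2 had an unadjusted p under 0.05, or 20% beside 5.14% of all genes tested. Both were of the EphA class and both were higher. Epha3, a receptor of ephrin-A ligands, had 470, 553 and 584 in Mest-KO and 413, 424 and 389 in control. The arrays were apart, and the log2 difference was 0.38 (SE 0.108, 1.31-fold higher, limma adjusted p 0.836). Its 3 probe sets above the filter gave 0.29 to 0.38. Epha4, which binds ephrins of both classes, had 4026, 4375 and 3555 in Mest-KO and 3361, 3332 and 3075 in control, a log2 difference of 0.29 (SE 0.105, limma adjusted p 0.909). It was also apart between the groups. Of its 4 other probe sets, 3 were higher, from 0.08 to 0.20, and 1 was lower at -0.16.

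Epha5 differed by 0.24 (SE 0.143) with overlap, and its other probe sets above the filter by 0.28 and 0.57. Epha1 had 258, 245 and 227 in Mest-KO and 268, 295 and 272 in control, a log2 difference of -0.20 (SE 0.0902) without overlap. Its other probe set above the filter gave -0.52, also without overlap. A further Epha1 probe set, under the filter, went the other way at 0.82 without overlap. Epha2 and Epha7 differed by 0.14 and -0.18. The 4 EphB genes above the filter ranged from -0.13 to 0.08. Among them Ephb3 had 415, 406 and 475 in Mest-KO and 493, 427 and 454 in control, which overlapped, with a log2 difference of -0.08 (SE 0.103). Ephb4, the main receptor of ephrin-B2 in vessels, differed by 0.08 with a 95% confidence interval from -0.10 to 0.27.

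**Figure D3:**
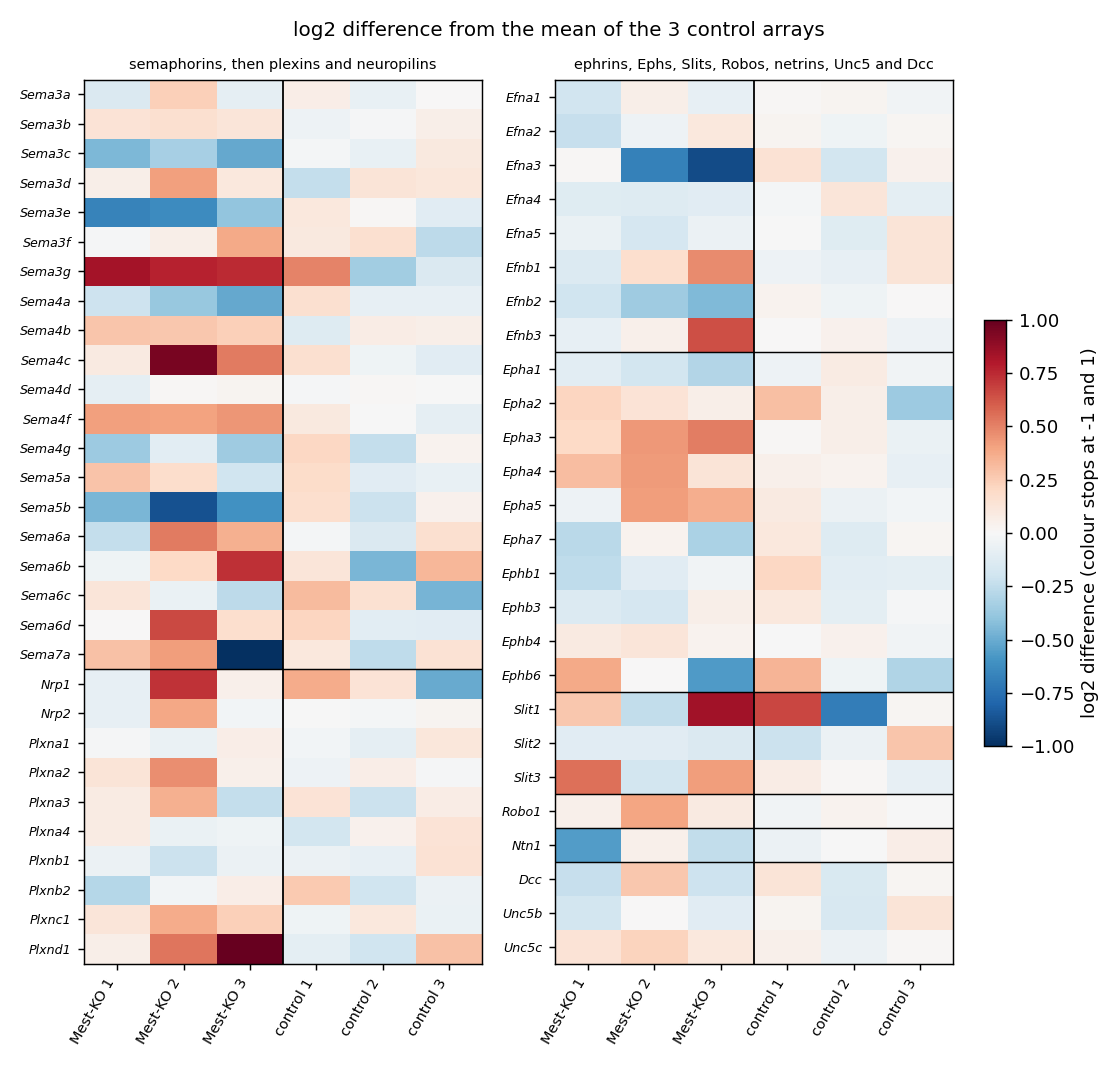
Difference of each array from the mean of the 3 controls on the log2 scale, for the 56 axon guidance genes in rows by family, with the 3 Mest-KO arrays left of the 3 controls. Red is above and blue below the control mean, Sema3e, Sema3c, Sema5b and Efnb2 are blue on all Mest-KO arrays, and Mest-KO 2 is the highest array for 19 of the 56 genes. That count was not taken over all genes.

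No gene of the Slit and Robo or of the netrin families had an unadjusted p under 0.05. All 3 Slit genes lay above the filter, 1 of the 4 Robo genes, 1 of the 4 netrin genes and 3 of the 5 Unc5 and Dcc genes. Slit2, a repellent of growing axons, had 2775, 2780 and 2714 in Mest-KO and 2578, 2879 and 3638 in control, a log2 difference of -0.12 (SE 0.137). It overlapped, control 3 was the highest array, and without it the value was 0.02. Slit1 had 53.8, 37.7 and 80.1 in Mest-KO and 71.1, 27.7 and 45.4 in control, with a log2 difference of 0.29 (SE 0.406), or -0.06 without control 2. Slit3 differed by 0.26 (SE 0.197). Robo1, a Slit receptor, had 5105, 6472 and 5244 in Mest-KO and 4815, 5060 and 4911 in control. The groups were apart by a small margin, with Mest-KO 2 above the rest, and the log2 difference was 0.18 (SE 0.113). It was 0.07 without Mest-KO 2 and -0.01 with median centring.

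Ntn1, the netrin needed in mice for the fusion that shapes the semicircular canals, had 350, 536 and 434 in Mest-KO and 497, 514 and 540 in control. The groups overlapped through Mest-KO 2, and the log2 difference was -0.25 (SE 0.160, limma adjusted p 0.909). It was -0.40 without Mest-KO 2 and -0.10 without Mest-KO 1. Dcc, the attractive netrin receptor, had 278, 394 and 282 in Mest-KO and 356, 294 and 331 in control, a log2 difference of -0.05 (SE 0.162). It was positive without Mest-KO 1, Mest-KO 3 or control 1, at most 0.03. Unc5b, a repulsive netrin receptor, had 416, 475 and 438 in Mest-KO and 481, 425 and 519 in control, a log2 difference of -0.10 (SE 0.108) with overlap. Unc5c had 1833, 1945 and 1796 in Mest-KO and 1726, 1602 and 1685 in control, apart by a log2 difference of 0.15 (SE 0.0806), while its second probe set gave -0.10.

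Known ligands can be set beside their receptors. The log2 change was -0.57 for Sema3e and 0.66 for Plxnd1, 0.00 for Sema3a and 0.23 for Nrp1, 0.14 for Sema3f and 0.09 for Nrp2, and -0.02 for Sema4d and -0.11 for Plxnb1. It was -0.33 for Efnb2, against 0.08 for Ephb4, -0.08 for Ephb3, -0.13 for Ephb1 and 0.29 for Epha4. It was -0.25 for Ntn1 and -0.05 for Dcc, and -0.12 for Slit2 and 0.18 for Robo1. Each value is that of the brightest probe set of the gene. The Plxnd1 groups overlapped (SE 0.339), and its value was 0.31 without Mest-KO 3. Another Sema3e probe set gave 0.05, and the other Nrp1 probe sets above the filter gave -0.40 and -0.24. Opposite changes of a ligand and its receptor were not tested. Among the 32 ligand genes above the filter 8 had an unadjusted p under 0.05, or 25%, and among the 24 receptor genes 2 had one, or 8.33%, beside 5.14% of all genes. The difference between these shares was not tested.

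The array Mest-KO 2 was the highest of the 6 for 19 of the 56 genes, the others for 2 to 12. The same count was not taken over all genes, so it does not set the members apart from other genes on that array. Sema4c, Sema6a, Sema6d, Nrp1, Nrp2, Plxnc1, Epha4 and Robo1 were among these 19. The summed mesenchyme markers were also highest on that array, at 6409, and their part in these values was not tested. Without Mest-KO 2 the count at an unadjusted p under 0.05 was 10 members, beside 4.91% of all genes, and 7 of them were shared with the full set of arrays. Without Mest-KO 3 it was 9, all of them shared, beside 5.28% of all genes. Without Mest-KO 1 it was 14, of which 8 were shared, beside 8.62% of all genes.

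The remaining 13 genes lay under the filter, and no test is given for them. They were Epha6, Epha8, Epha10, Plxnb3, Robo2, Robo3, Robo4, Ntn3, Ntn4, Ntn5, Unc5a, Unc5d and the antisense transcript Plxna4os1. Robo2, which acts with Robo1 as a Slit receptor, had 28.4, 41.4 and 11.4 in Mest-KO and 23.2, 13.6 and 25.7 in control. Plxnb3, a plexin of class B, had 22.2, 12.4 and 8.70 in Mest-KO and 10.3, 1.91 and 1.89 in control. Values this dim overlapped between the groups in all 13 genes, and a dim array signal does not show that a gene was silent.

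By probe set, 113 of the 152 lay above the filter. None had an adjusted p under 0.05 in the probe set fit (limma, 0 of 27022 probe sets or 0%, smallest adjusted p of a member 0.969). At an unadjusted p under 0.05 there were 14, 6 higher and 8 lower in Mest-KO, beside 3.98% of all probe sets (1.74% higher and 2.25% lower). In 33 genes with more than 1 probe set above the filter, all probe sets had the same sign in 13 genes and not in 20. Sema3c was the gene whose probe sets differed in sign by at least 0.3 in each direction. Efnb2, Epha3, Epha5, Robo1, Plxna2, Sema4a, Sema4f and Sema5b were among those with 1 sign.

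**Figure D4:**
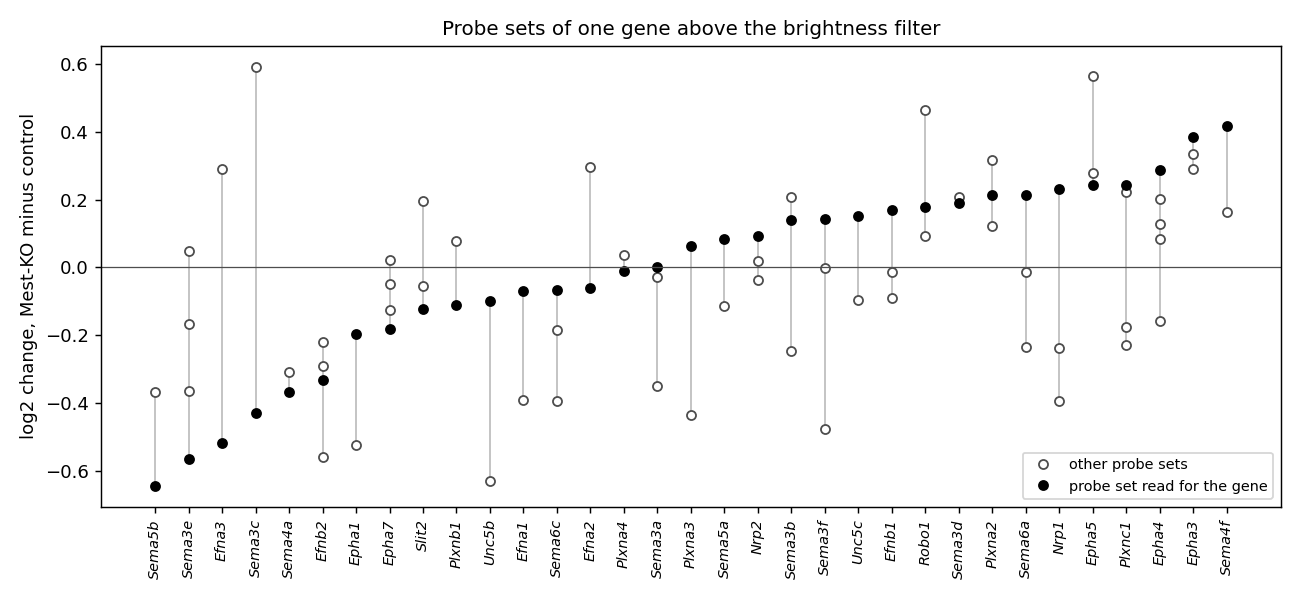
Log2 change, Mest-KO minus control, of every probe set above the filter for the 33 axon guidance genes with more than 1, with the probe set read for the gene filled and the others open. The open points of Sema3e reach 0.05 and that of Sema3c 0.59, against -0.57 and -0.43 for the filled ones, while the points of Efnb2 and Epha3 stay on 1 side of 0.

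Other genes of these pathways were read from lists of 51 genes, 21 co-receptors and related guidance proteins and 30 intracellular effectors. Of 42 above the filter, 24 were higher and 18 lower, none passed over all genes, and 3 had an unadjusted p under 0.05, or 7.14% beside 5.14% of all genes. All 3 were lower in Mest-KO. Ntng1, which encodes the membrane-anchored netrin G1, had 79.0, 132 and 93.6 in Mest-KO and 209, 210 and 210 in control. It was far apart between the groups, by a log2 difference of -1.08 (SE 0.188, limma adjusted p 0.528), and the adjusted p was 0.0241 with median centring and 0.128 to 0.999 in the other settings tried. Ablim1, an actin-binding protein downstream of netrin signals, had 1084, 1216 and 1095 in Mest-KO and 1591, 1454 and 1648 in control, a log2 difference of -0.47 (SE 0.0933, limma adjusted p 0.571). Those arrays were apart too, but the mean of all its probe sets gave 0.35. Its relative Ablim3 was the remaining one of the 3, at -0.46 (SE 0.132), and is named after its value was seen.

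Of the genes that were higher, Rgmb, a ligand of the receptor neogenin, had the smallest p among the co-receptors and related proteins. It had 1082, 1547 and 1211 in Mest-KO and 1051, 970 and 991 in control, a log2 difference of 0.34 (SE 0.143). Trio, known to act downstream of Dcc, had 2352, 3142 and 2401 in Mest-KO and 2264, 2094 and 2189 in control, a log2 difference of 0.26 (SE 0.131). Both were apart, with Mest-KO 2 the highest array, and both had a limma adjusted p of 0.909. Without that array Rgmb differed by 0.19 and Trio by 0.12.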

How the data were processed

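The authors processed the Affymetrix arrays with Affymetrix Expression Console 1.1, per the submitters' processing notes. What they deposited is a linear intensity for every probe set, scaled so that the trimmed mean of an array is 500 (2% off each end). How probes were summarised and background removed is unknown here, and the table has no detection calls.

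After removal of the 64 control probe sets, intensities below 1 became 1, and arrays were quantile normalized on the log2 scale. Printed intensities are these values back on the linear scale. A gene took the values of its brightest probe set by mean over all arrays, and was tested where this mean exceeded the 40th percentile over the array, 34.4. This left 12462 genes and 27022 probe sets. Levels of different probe sets are not comparable. The test was limma 3.58.1 under R 4.3.3 (lmFit, eBayes, neither trend nor covariate), with Benjamini-Hochberg adjustment over all genes or probe sets. SE and intervals are those of this fit, and n is 3 arrays per group throughout. The limma fit of genes was tested on simulated log2 values, and the steps before it were not. The number of arrays limits the precision, and no 2 arrays shared more than 1 equal value. By the labels, arrays of a group are biological replicates, each a separate pool.

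Genes were named by a rule: any gene called, the 12 with the smallest p, the extremes of each family, the 4 with the largest residual SD, 19 genes with known parts in the ear (1 not analysed here), the smallest p in each direction of the pathway lists, and genes whose probe sets disagree by at least 0.3 in each direction. Members, lists and rule were chosen with earlier results of these data known. Arrays left out kept the probe sets and filter of all 6. Alternatives are given in the closing section. Matplotlib 3.10.9 under Python 3.11.15 drew the figures.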

Additional observations from a re-analysis of the deposited data

How the results depend on the processing

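The count of members called, 0, was 1 (Sema3e) with trend and robust fitting and 0 under every other setting and with each array left out. For Sema3e the cause was not tested. The count of pathway partners and effectors called was 1 (Ntng1) with median centring, which called 25 of all genes against 0, and 0 otherwise. The count of member probe sets called was 0 throughout. The 10 of 56 members with an unadjusted p under 0.05, beside 5.14% of all genes, became 6 of 56 with median centring, beside 3.76%. They were 5 of 54 with the mean of all probe sets, beside 4.31%, and 5 of 39 with the most variable probe set, beside 3.92%. With an array left out they were 7 to 14 of 56, beside 3.97% to 8.62% of all genes. The count of 14 and the share of 8.62% were both those without Mest-KO 1. The median log2 change of the members, 0.03, was 0.10 with the deposited scaling, -0.053 with median centring, -0.080 with the most variable probe set and -0.022 to 0.086 with an array left out. Of 37 named genes, 20 kept their sign in each setting that gave them a value (567 values for the 37 genes, since filters and probe set rules left some without one). Sign changes with the mean of all probe sets were Ablim1 at 0.35, Dcc at 0.075, Epha1 at 0.034, Nrp1 at -0.25, Nrp2 at -0.045, Sema3a at -0.13, Sema3c at 0.082, Sema3f at -0.11 and Slit2 at 0.0072. With the most variable probe set they were Efnb1 at -0.091, Plxnb1 at 0.079, Sema3a at -0.027, Sema3c at 0.59, Sema3f at -0.48 and Unc5c at -0.10. With median centring they were Nrp2 at -0.062, Robo1 at -0.010, Sema3a at -0.14 and Unc5c at -0.0015. With an array left out, Dcc ran from -0.22 to 0.032, Efnb3 from -0.012 to 0.35, Nrp1 from -0.022 to 0.42, Nrp2 from -0.053 to 0.18, Plxna1 from -0.046 to 0.054, Sema3a from -0.12 to 0.075, Sema7a from -0.85 to 0.37, Slit1 from -0.060 to 0.63, Slit2 from -0.23 to 0.017 and Tbx1 from -0.14 to 0.059. These causes were not tested. With the replicate number as a block, 0 members were called and 12 had an unadjusted p under 0.05, beside 5.07% of all genes. The replicate numbers share no origin in the labels (correlations of same-numbered arrays of -0.109, -0.008 and -0.007). Dim genes are limited by signal close to background.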
